A study of Mus musculus with 5 samples.

Results

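The 69 genes described here encode protein folding chaperones of the cytosol and the mitochondria, out of 13004 genes in the deposited table. They were chosen by a rule on symbols, with earlier results of these data known. The rule took the Cct genes and Tcp1, the Pfdn genes, and the Dnaja, Dnajb and Dnajc genes. It also took the heat shock genes Hspa, Hspb, Hspd, Hspe, Hsph and Hsp90a. Hspa5, Dnajb9, Dnajb11 and Dnajc3 were left out. The libraries were made from natural killer (NK) cells, lymphocytes of innate immunity known for killing virus-infected and tumour cells, sorted from the spleen of C57BL/6 mice at 8 weeks as live CD3-, NK1.1+, DX5+ cells. The control libraries (replicates 1, 2 and 3) carried loxP-flanked Myc alleles (Mycf/f), and the MycKO libraries (replicates 5 and 6) carried deleted Myc alleles and Ncr1Cre (Mycdelta/delta/Ncr1Cre), a Cre recombinase driven by the NK receptor gene Ncr1. The label of the controls names no Cre, so Cre and the loss of Myc differed together and cannot be told apart. From the labels it is unknown if a library is 1 mouse or a pool. The p-values below therefore rest on the variation among 5 libraries, and that variation may be technical.

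Chaperones help other proteins reach and keep their folded shape. Members of the HSP70 family bind short hydrophobic stretches of a client under the control of J proteins, which start ATP hydrolysis, and of nucleotide exchange factors such as HSP110, which end the cycle. Prefoldin catches new chains and passes actin and tubulin to the ring-shaped chaperonin CCT (also called TRiC), HSP90 completes the folding of kinases and receptors, and mitochondria have their own HSP70 and a chaperonin ring made of HSP60 and HSP10. MYC is known to drive growth genes, and the comparison asked how the RNA of these cells differs once Myc is removed. By their names, the 69 genes also include some whose products are known from the endoplasmic reticulum, such as Dnajc1, Dnajc10, Hspa13 and Dnajb12.

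The libraries held between 5451728 (MycKO 5) and 17610826 (control 2) reads in the listed genes, and low genes are least precise in MycKO 5. Myc itself was measured at 13.0, 23.0 and 21.2 RPKM (reads scaled by transcript length and library size) in controls 1, 2 and 3 and at 12.5 and 8.70 RPKM for MycKO 5 and 6, a log2 fold change of -0.77 (SE 0.28) with a limma adjusted p of 0.297. That value covers the whole gene and cannot show how complete the deletion was. All 12 NK cell marker genes were detected, with a summed level of 13581 to 15584 RPKM for the controls, against 10985 and 12853 RPKM for MycKO 5 and 6. Genes that mark other cells of the spleen had larger sums in both MycKO libraries: 13 myeloid genes summed to 251.3 to 464 RPKM for the controls, against 2034 and 1393 RPKM for MycKO 5 and 6, and 8 T cell genes to 14.7 to 33.0 and to 121.3 and 178.0 RPKM. Similarly, 7 measured B cell genes summed to 86.0 to 139.7 RPKM for the controls, against 340.2 and 672.3 RPKM for the MycKO libraries. For 8 measured red cell and platelet genes the sums were 85.3 to 139.7, against 397.0 and 221.4 RPKM. For 6 basophil and mast cell genes they were 3.57 to 5.58, against 68.3 and 9.56 RPKM. The part of these cells in the chaperone values below was not tested.

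No tested chaperone transcript passed the test between control and MycKO NK cells. Of the 69 genes, 62 reached 1 RPKM in at least 2 libraries and were tested, and none passed limma at an adjusted p under 0.05, where 1.34% of all 11190 genes tested passed (1.24% higher and 0.0983% lower). At an unadjusted p under 0.05 there were 5 chaperone genes (8.06% of those tested, against 13.2% of all genes). Hsp90aa1, Hspe1, Dnajb2 and Dnajb13 were higher in MycKO, as were 9.83% of all genes at that p, and Dnaja4 was lower, as were 3.35%. Limma-voom on the recovered reads called none of the 62, where 2.07% of all genes were called (1.83% higher and 0.241% lower), and 2 of the 62 had an unadjusted p under 0.05, where 12.5% of all genes did. The authors' deposited table gave an adjusted p under 0.05 to 1 of the 69, the auxilin gene Dnajc6, which was higher in MycKO, and to 3.4% of all 13004 genes (2.9% higher and 0.5% lower). The median log2 fold change was 0.055 over the 62 chaperone genes and 0.048 over all genes tested. Of the 62, 35 (56.5%) had a log2 fold change above 0, against 57.1% of all genes tested. In bulk samples, fewer cells of a type and less RNA per cell cannot be told apart.

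The two-sided 95% intervals show how much difference these data allow. For 45 of the 62 tested chaperone genes (72.6%) the interval lay within a 2-fold change in both directions, against 65.2% of all genes tested. It did so for all 8 chaperonin genes and both HSP90 genes, but for 4 of 9 class B J protein genes and 3 of 5 prefoldin genes. The chaperone genes were also more abundant, with a median level of 4.61 on the log2 scale, against 3.69 for all genes tested. Their median SE was 0.186, against 0.235. The part of level in these shares was not tested. A pseudocount was added to RPKM, so for genes at a few RPKM the range is not a 2-fold limit on RPKM itself. MycKO values did not overlap the control values in 14 of the 62 genes (22.6%), against 29.1% of all genes tested. They were apart upward in 7 of them, against 18.8% of all genes, and downward in 7, against 10.4%.

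**Figure D1:**
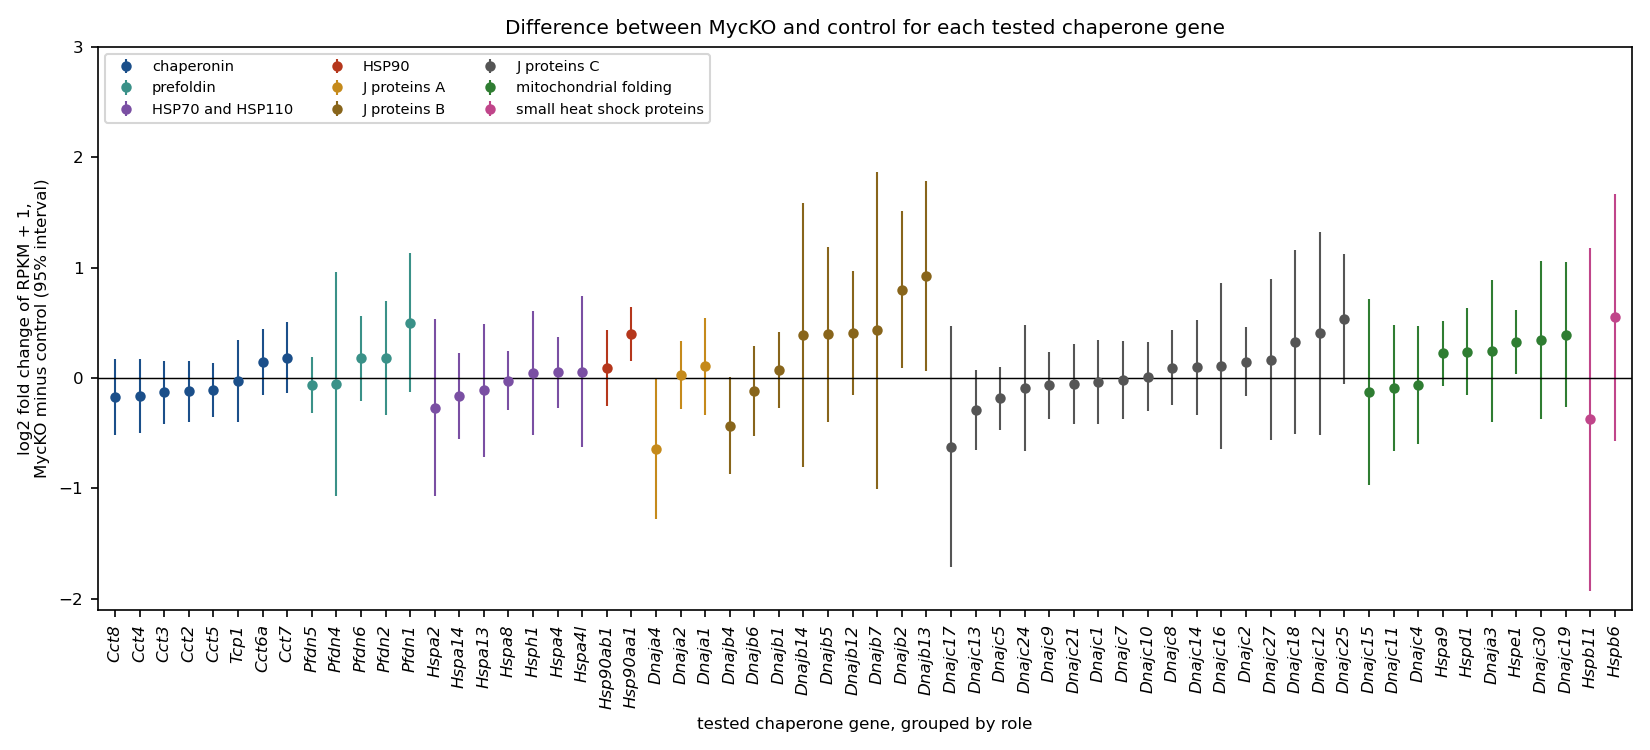
Log2 fold change of RPKM + 1, MycKO minus control, on the vertical axis for each of the 62 tested chaperone genes along the horizontal axis, grouped and coloured by role; points are limma estimates and bars their 95% intervals. Most intervals cross 0, and Hsp90aa1 has the narrowest one that does not, from 0.16 to 0.65.

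Heat shock genes are switched on through heat shock elements, inverted repeats of GAA bound by the factor HSF1, and MYC with its partner MAX binds the E-box CACGTG. The promoters of 56 of the 69 genes were matched in RefSeq (GRCm38.p6), and the 250 bases before each listed start were searched on both strands. The other 13 genes were not searched. Hsp90aa1, Hsp90ab1, Hspa8, Hspa9, Cct4 and Pfdn1 are among those 13, so nothing is known here of their elements. A heat shock element of 3 units (GAANNTTCNNGAA or TTCNNGAANNTTC) was found in 3 of the 56, Hspd1, Hspe1 and Dnajb6, or 5.36%, against 0.514% of all 27025 genes with a promoter and 0.477% of those tested here. The shorter element of 2 units (GAANNTTC or TTCNNGAA), which every 3-unit element contains, was found in 14 of 56 (25%), against 14.5% of all genes and 12.4% of those tested here. The stretches below are shown because they carry the element in genes whose values are given further on, with the element in capitals, 5′ to 3′ on the strand of the gene.
Hspe1, chr1:55088053-55088082, plus strand: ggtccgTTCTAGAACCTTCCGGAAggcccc
Dnajb6, chr5:29735844-29735873, plus strand: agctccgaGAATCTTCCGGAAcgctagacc
Hsph1, chr5:149636351-149636380, minus strand: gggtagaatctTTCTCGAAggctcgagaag
Hspa1b, chr17:34959324-34959353, minus strand: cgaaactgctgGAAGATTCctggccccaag
Dnaja4, chr9:54699458-54699487, plus strand: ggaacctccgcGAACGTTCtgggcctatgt

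The Hspe1 stretch holds 2 overlapping matches. Hspe1 and Hspd1 are transcribed from opposite strands with overlapping exons, and the same bases lie before 1 of the 2 starts that RefSeq lists for Hspd1. The shares above count these bases for both genes. An E-box was found before the start of 4 of the 56 genes (7.14%), against 6.86% of all genes with a promoter and 10.04% of those tested here. These are the 4, with CACGTG in capitals.
Hspd1, chr1:55088306-55088335, minus strand: ggccggctgggaCACGTGaaaaggccgcgc
Hsph1, chr5:149636317-149636346, minus strand: aagcggaagtggCACGTGgaggcgccggtg
Dnajc1, chr2:18392938-18392967, minus strand: ccagcgctgacaCACGTGcagctgctctac
Dnajc16, chr4:141790705-141790734, minus strand: gtctttaagtgaCACGTGactgccccgggc

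Of the 9 stretches, 3 lie outside annotated exons in GENCODE vM21 (those of Hspa1b, Dnaja4 and Dnajc1), and 6 touch an annotated exon of the same or a neighbouring gene. The 4 genes with an E-box had log2 fold changes from -0.04 (Dnajc1) to 0.24 (Hspd1). None of the 4 passed limma, where 1.34% of all genes tested passed. The 12 tested genes with a 2-unit element ranged from -0.64 (Dnaja4) to 0.55 (Hspb6). Of the 12, 7 were above and 5 below 0, where 57.1% of all genes tested were above. A match of letters is a description and shows no binding.

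Among the 62 tested chaperone genes, an HSP90 gene had the lowest adjusted p in limma and in limma-voom. Hsp90aa1, which encodes the inducible cytosolic form HSP90-alpha (Entrez 15519; mm10 chromosome 12, 110690605 to 110702728, minus strand, protein-coding), was at 116.1, 126.4 and 129.4 RPKM for controls 1, 2 and 3, against 170.7 and 157.6 RPKM for MycKO 5 and 6. Both MycKO libraries lay above every control, and the values rest on 2654 (MycKO 5) to 6348 (control 2) reads. The mean was 124.0 ± 6.99 RPKM (SD, n = 3) among controls, against 164.1 ± 9.22 RPKM (SD, n = 2) with Myc deleted, a log2 fold change of 0.40 (SE 0.11) with a limma adjusted p of 0.142, and of 0.0997 with limma-voom. In the authors' deposited table its log2 ratio was 0.34 with an adjusted p of 0.234. It thus did not pass in any of these tests.

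Hsp90ab1, the constitutive form HSP90-beta (chromosome 17, 45567775 to 45573271, minus strand), was the more abundant of the pair. It was measured at 320.0, 396.1 and 303.4 RPKM for controls 1, 2 and 3, against 394.5 and 327.9 RPKM for MycKO 5 and 6. Control 2 and MycKO 5 were both high, the groups overlapped, and the log2 fold change was 0.09 (95% interval -0.25 to 0.43). Hsp90aa1 made up 26.6%, 24.2% and 29.9% of the HSP90 level of the controls, against 30.2% and 32.5% in MycKO 5 and 6. The 2 shares in MycKO were above all 3 controls, by 4.43 percentage points between the means (exact permutation test, two-sided, p = 0.2, and 0.875 adjusted over 5 such values). With 3 against 2 libraries that test cannot go below 0.1.

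The HSP70 family was led by Hspa8, the constitutive cytosolic HSC70 (Entrez 15481; chromosome 9, 40800984 to 40810087, plus strand), the most abundant chaperone transcript of all. It was at 494, 519 and 472 RPKM for controls 1, 2 and 3, against 532 and 446 RPKM for MycKO 5 and 6, so the MycKO libraries held both the highest and the lowest value. The log2 fold change was -0.02 (95% interval -0.29 to 0.25; limma adjusted p = 0.972). Hspa8 made up 83.3% to 84.1% of the summed HSP70 and HSP110 level in controls and 85.2% and 82.2% in MycKO 5 and 6 (exact permutation test, two-sided, p = 1). Its exons overlap small nucleolar RNA genes of the Snord14 group on the same strand.

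The nucleotide exchange factors of the HSP110 class also overlapped between the groups. Hspa4 was at 42.6 ± 5.07 RPKM (SD, n = 3) among controls, against 44.0 ± 1.01 RPKM (SD, n = 2) with Myc deleted. Hsph1 was at 14.1 ± 3.86 and 14.3 ± 1.25 RPKM, and Hspa4l at 8.86 ± 2.63 and 9.06 ± 1.6 RPKM. Control 1 had the highest value of Hsph1 (18.4 RPKM) and of Hspa4l (10.9 RPKM). Hspa14, the HSP70 that works with Dnajc2 on ribosomes, was at 15.6, 17.6 and 14.8 RPKM for the controls, against 14.1 and 14.2 RPKM for the MycKO libraries, below all controls but by a log2 fold change of only -0.16 (95% interval -0.56 to 0.23). Dnajc2 itself was at 40.8 ± 4.41 and 45.2 ± 0.495 RPKM and overlapped between groups. Of 7 tested genes of the family, 3 were above 0 (42.9%, against 57.1% of all genes tested) and 4 below. The lowest was Hspa2 at -0.27 (95% interval -1.07 to 0.53).

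The 1 measured gene of stress-inducible HSP70 was near the floor in every library. Hspa1b, a gene that heat shock induces (chromosome 17, 34956436 to 34959238, minus strand), had 0 reads in the 3 controls and 10 and 9 reads in MycKO 5 and 6 (0.652 and 0.240 RPKM). Taken over each group, that is 15.8-fold higher in MycKO when the 3 controls are set at 3 reads in all. From MycKO 5 alone the ratio was 28.7-fold, and from MycKO 6 alone 10.6-fold. Counting error in the MycKO reads is left out, so these ratios are not lower bounds. Hspa1b was too low to be tested. With no filter it had a limma adjusted p of 0.367, and the authors' deposited table gave an adjusted p of 0.245. Mice have a near-identical copy of this gene, Hspa1a, which is not among the chaperone genes listed. Reads may have been divided between the copies or left out, so the value is uncertain. A list of 11 immediate early genes, which rise with handling of cells, summed to 397.9 to 576.9 RPKM for the controls. The sums were 468.1 and 414.0 RPKM for MycKO 5 and 6, within the range of the controls. Of the 11, 2 had both MycKO values above every control (18.8% of all genes tested did). For 1 both were below (10.4% of all genes tested). The part of handling in these values was not tested.

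**Figure D2:**
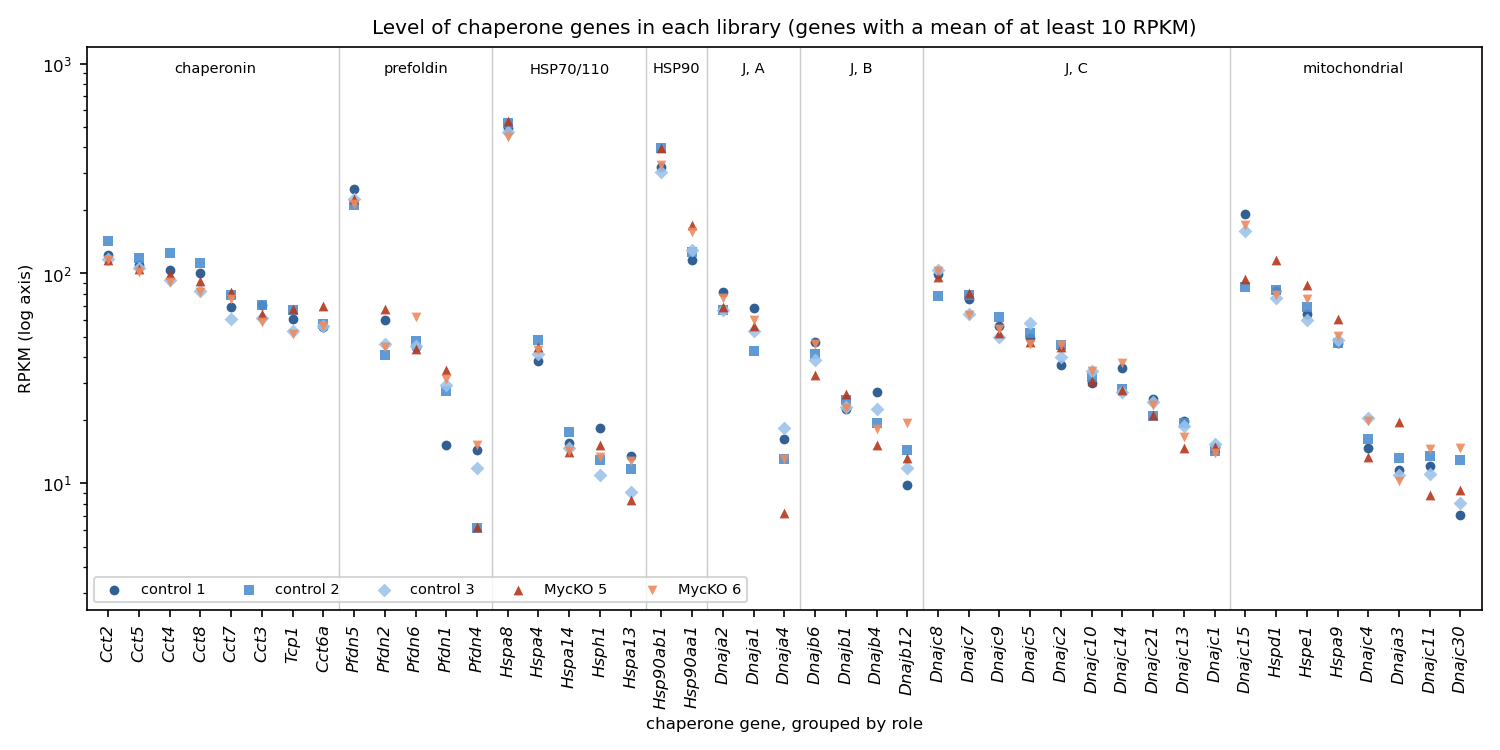
RPKM on a log axis of each tested chaperone gene with a mean of at least 10 RPKM, in each of the 5 libraries, grouped by role (J, A to J, C are the classes of J proteins). Blue symbols are the 3 controls and red ones the 2 MycKO libraries; Hspa8 is highest at 446 to 532 RPKM, and the symbols of both groups mix for most genes.

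The cytosolic chaperonin CCT is a double ring in which each ring holds every subunit once. All 8 measured genes were tested, and each was present at 51.3 RPKM or more in every library. In MycKO, 6 of the 8 were below 0 in log2 fold change and 2 above (25%, against 57.1% of all genes tested). They ranged from -0.17 (Cct8) to 0.18 (Cct7), with a median of -0.11. None passed limma (adjusted p from 0.69 to 0.975), where 1.34% of all genes tested passed. No interval reached beyond -0.52 or 0.50. Cct2 was at 122.3, 142.6 and 116.9 RPKM for controls 1, 2 and 3, against 116.6 and 116.5 RPKM for MycKO 5 and 6. Cct5 was at 110.2, 118.5 and 105.6 and at 104.6 and 101.7 RPKM. These were the only chaperonin genes whose MycKO values lay below every control, in each case by a small margin to control 3.

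Among the other subunits the groups overlapped. Cct4 was at 107.3 ± 16.2 RPKM (SD, n = 3) among controls, against 94.9 ± 5.6 RPKM (SD, n = 2) with Myc deleted, and Cct8 at 98.7 ± 15.0 and 86.8 ± 6.83 RPKM. Cct3 was at 67.5 ± 5.54 and 61.5 ± 3.53 RPKM, and Tcp1, the founding subunit CCT1, at 60.3 ± 6.78 and 59.4 ± 11.4 RPKM. The 2 subunits with a higher mean in MycKO were Cct7, at 69.7 ± 9.3 and 78.8 ± 4.13 RPKM, and Cct6a, at 56.4 ± 1.01 and 62.9 ± 9.62 RPKM.

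Control 2 had the highest level of 5 of the 8 chaperonin genes and MycKO 5 of the other 3, and MycKO 6 had the lowest level of 6. The summed level was 693, 773 and 630 RPKM for controls 1, 2 and 3, against 695 and 633 RPKM for MycKO 5 and 6, a difference of -34.5 RPKM between the means (exact permutation test, two-sided, p = 0.7). Without control 2 the difference was 2.70 RPKM. Mitosis genes were also highest in control 2: a list of 10 summed to 184.7 RPKM in control 2, against 35.7 and 36.7 for controls 1 and 3 and 140.7 and 68.6 RPKM for MycKO 5 and 6; their part in the chaperonin values was not tested.

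Cct2 was the most abundant subunit in every library, with 16.8% to 18.6% of the complex's summed RPKM. The least abundant was Cct6a in controls 1 and 2, Tcp1 in control 3 and MycKO 6, and Cct3 in MycKO 5. The highest subunit exceeded the lowest by 1.82 times in MycKO 5 and by 2.20 to 2.48 times in the other 4 libraries. Cct7 took 9.95%, 10.3% and 9.65% of the sum for controls 1, 2 and 3, against 11.8% and 12.0% in MycKO 5 and 6. That share was singled out after its values were seen, and the difference was not tested. Exons of Cct7 overlap those of Pradc1 on the other strand, and Cct6a those of Psph.

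**Figure D3:**
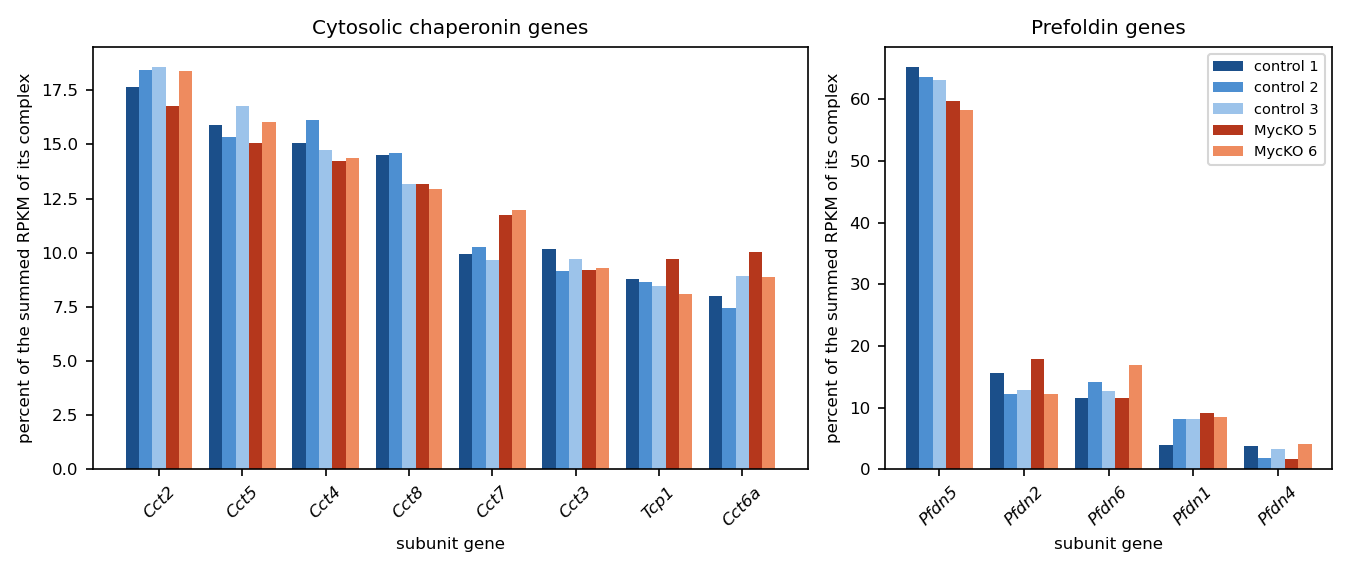
Percent of a summed RPKM that each subunit gene takes in each of the 5 libraries. The sum is over the chaperonin genes (left) or over the 5 Pfdn genes, without the prefoldin subunit gene Vbp1 (right). Bars are single libraries, blue for control and red for MycKO. Cct7 takes 11.8% and 12.0% in MycKO against 9.65% to 10.3% in controls. Pfdn5 takes 58.3% to 65.2% of the sum of the 5 Pfdn genes.

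Prefoldin transcripts were less even. The 5 Pfdn genes leave out the subunit gene Vbp1, whose symbol lies outside the rule. Pfdn5, also known as a MYC-binding protein, was at 252.4, 212.5 and 226.3 RPKM for controls 1, 2 and 3, against 225.4 and 214.5 RPKM for MycKO 5 and 6. It was the third most abundant chaperone transcript, and its log2 fold change was -0.06 (95% interval -0.32 to 0.19). Pfdn1 was at 15.2, 27.4 and 29.3 RPKM for the controls, against 34.7 and 31.5 RPKM for the MycKO libraries, so both MycKO values were above every control, with control 1 far below the rest. Its log2 fold change was 0.50 (SE 0.27; limma adjusted p = 0.522). Without control 1 it was 0.22.

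Pfdn2, Pfdn4 and Pfdn6 overlapped between the groups, and their values varied widely within 1 or both groups. Pfdn4 was at 14.4, 6.12 and 11.9 RPKM for controls 1, 2 and 3, against 6.17 and 15.3 RPKM for MycKO 5 and 6, low in 1 library of each group. Its interval ran from -1.07 to 0.96. Pfdn2 was at 49.0 ± 10.2 RPKM (SD, n = 3) among controls, against 56.1 ± 16.1 RPKM (SD, n = 2) with Myc deleted, and Pfdn6 at 45.8 ± 1.47 and 52.7 ± 13.1 RPKM. The summed level of the Pfdn genes, without Vbp1, was 359.9 ± 26.4 and 372.6 ± 6.53 RPKM (exact permutation test, two-sided, p = 0.7).

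None of the 9 tested mitochondrial folding genes passed limma, where 1.34% of all genes tested passed. The log2 fold change was above 0 for 6 of them (66.7%, against 57.1% of all genes tested) and below 0 for 3. Hspe1, which encodes the HSP10 lid of the mitochondrial chaperonin (Entrez 15528; chromosome 1, 55088132 to 55091307, plus strand), was at 64.1, 69.6 and 60.1 RPKM for controls 1, 2 and 3, against 87.8 and 75.2 RPKM for MycKO 5 and 6. The groups did not overlap, and the log2 fold change was 0.33 (SE 0.12; limma adjusted p = 0.316, unadjusted 0.0313). Hspa9, the mitochondrial HSP70 mortalin, was at 46.5, 46.9 and 48.3 RPKM for the controls, against 60.5 and 50.4 RPKM for the MycKO libraries, again apart, with a log2 fold change of 0.22 (limma adjusted p = 0.544). Hspd1, the HSP60 ring subunit (chromosome 1, 55077835 to 55088243, minus strand), was at 82.7, 83.8 and 76.3 RPKM for the controls, against 115.9 and 78.9 RPKM for MycKO 5 and 6.

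For Hspd1 MycKO 5 was high and MycKO 6 lay within the controls. Its log2 fold change was 0.24 with all libraries and -0.04 without MycKO 5, while Hspe1 and Hspa9 were at 0.22 and 0.09 without it. Hspd1 and Hspe1, whose products work as 1 machine, stood in a ratio of 1.20 to 1.29 among controls, and of 1.32 and 1.05 in MycKO 5 and 6. Their exons overlap on opposite strands, and GENCODE lists 5 pseudogenes named after Hspd1 and 6 after Hspe1, so their reads may have been divided or mixed. In the same library, MycKO 5, the markers of myeloid cells (2034 RPKM), of red cells and platelets, and of basophils and mast cells summed highest. Those of T and B cells summed highest in MycKO 6. The part of these cells in the Hspd1 values was not tested.

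J proteins of the mitochondria showed no common direction. Dnajc15, a J protein of the inner membrane import motor, had the widest spread among the 8 chaperone genes with a mean of at least 100 RPKM, at 192.8, 86.6 and 158.6 RPKM for controls 1, 2 and 3, against 94.2 and 170.2 RPKM for MycKO 5 and 6. It was low in control 2 and MycKO 5, the libraries in which Pfdn4 was also low, and its interval ran from -0.97 to 0.71. Dnaja3, known as TID1, was at 19.7 RPKM in MycKO 5 and at 10.3 to 13.2 RPKM in the other 4 libraries. Dnajc19, Dnajc30, Dnajc11 and Dnajc4 ranged from -0.09 (Dnajc11) to 0.39 (Dnajc19) in log2 fold change, with overlapping groups. All 10 mitochondrial genes summed to 396.3 ± 45.02 RPKM (SD, n = 3) among controls, against 432.0 ± 19.97 RPKM (SD, n = 2) with Myc deleted (exact permutation test, two-sided, p = 0.4).

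**Figure D4:**
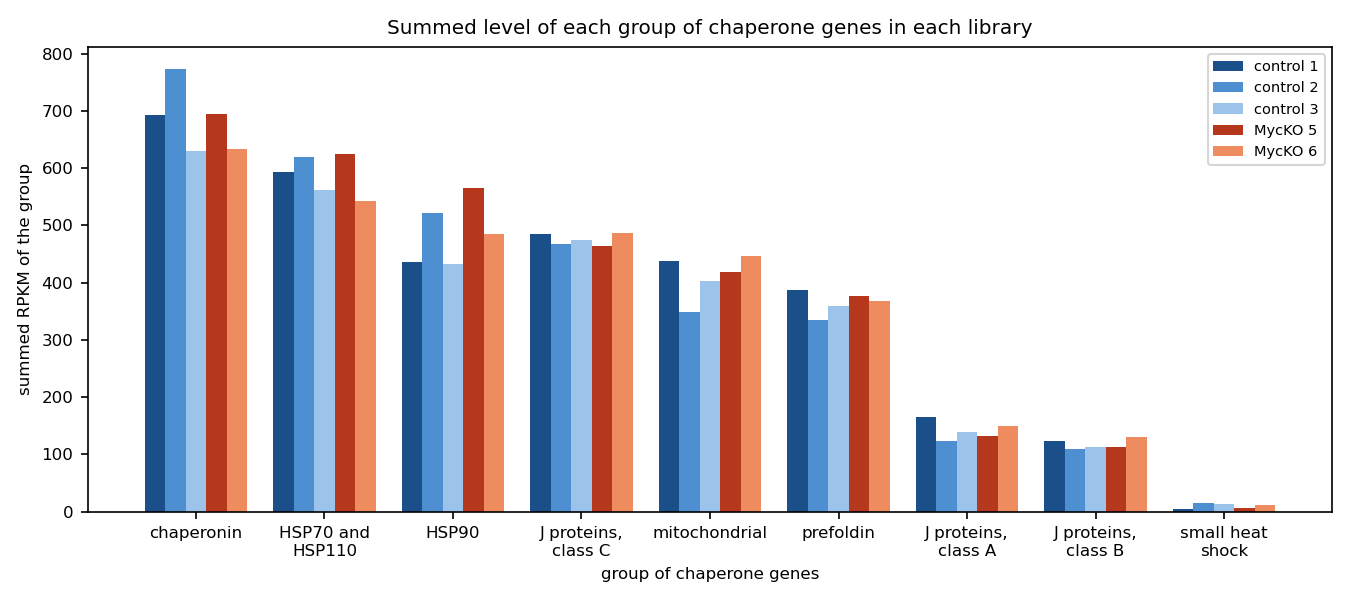
Summed RPKM of the measured genes of each group of chaperones in each of the 5 libraries; bars are single libraries, blue for control and red for MycKO. Control and MycKO bars overlap in height within each group, with the chaperonin highest at 630 to 773 RPKM and the small heat shock proteins lowest at 4.51 to 14.9 RPKM.

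Outside mitochondria, 29 of 30 J protein genes were tested, with a median log2 fold change of 0.09. Of the 29, 18 were above 0 (62.1%, against 57.1% of all genes tested) and 11 below. Class A and B proteins are the general partners of HSP70. Dnaja1, Dnaja2 and Dnajb1, the main cytosolic ones, were at 54.8 ± 12.7, 71.8 ± 8.49 and 23.5 ± 1.19 RPKM (SD, n = 3) among controls, against 57.97 ± 2.66, 72.9 ± 5.19 and 24.8 ± 2.69 RPKM (SD, n = 2) with Myc deleted. Their intervals stayed between -0.34 and 0.55. Dnajb6, which keeps aggregation-prone chains soluble, was at 42.4 ± 4.2 and 39.4 ± 9.38 RPKM and overlapped between groups.

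A few less abundant class A and B genes stood apart. Dnaja4 (Entrez 58233; chromosome 9, 54698873 to 54716315, plus strand), a relative of Dnaja1, was at 16.2, 13.1 and 18.4 RPKM for controls 1, 2 and 3, against 7.20 and 13.0 RPKM for MycKO 5 and 6. MycKO 6 was just under control 2, and the low mean came from MycKO 5, with 118 reads. The log2 fold change was -0.64 (SE 0.27; limma adjusted p = 0.376), and -0.26 without MycKO 5. Exons of Dnaja4 overlap those of Wdr61 on the other strand. Dnajb4, a heat-inducible J protein, was at 27.1, 19.5 and 22.6 RPKM for the controls, against 15.3 and 18.2 RPKM for the MycKO libraries, below every control, with a log2 fold change of -0.43 (SE 0.19; limma adjusted p = 0.388).

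Dnajb2 and Dnajb13 were the class B genes furthest in the other direction. Dnajb2 (Entrez 56812; chromosome 1, 75236406 to 75245692, plus strand), whose product hands ubiquitin-tagged clients to the proteasome, was at 3.75, 2.46 and 3.76 RPKM for controls 1, 2 and 3, against 5.27 and 7.86 RPKM for MycKO 5 and 6. Both MycKO libraries were above all controls, on 130 to 474 reads, with a log2 fold change of 0.80 (SE 0.31; limma adjusted p = 0.321, and 0.133 with limma-voom). Dnajb13, known from sperm tails, was at 1.95 ± 0.889 RPKM (SD, n = 3) among controls, against 4.39 ± 0.0911 RPKM (SD, n = 2) with Myc deleted, a log2 fold change of 0.92 (limma adjusted p = 0.344). It rests on 16 to 68 reads, and its exons overlap those of Ucp2 on the other strand. Dnajb7, at 0.43, had reads in only 2 libraries, control 3 (19) and MycKO 5 (13).

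Class C J proteins are recruited to special tasks. The most abundant outside mitochondria were Dnajc8, a splicing factor, at 93.7 ± 14.0 RPKM (SD, n = 3) among controls, against 99.3 ± 4.38 RPKM (SD, n = 2) with Myc deleted, and Dnajc7, which links HSP70 to HSP90, at 72.8 ± 7.87 and 72.2 ± 12.6 RPKM. Dnajc5, the cysteine string protein of vesicle exocytosis, was at 49.4, 52.0 and 58.1 RPKM for the controls, against 47.0 and 46.2 RPKM for the MycKO libraries, below every control, with a log2 fold change of -0.18 (95% interval -0.47 to 0.10). Dnajc13, an endosomal J protein, was at 19.9, 19.4 and 18.7 RPKM for the controls, against 14.7 and 16.7 RPKM for the MycKO libraries, also below every control, with a log2 fold change of -0.29 (SE 0.16; limma adjusted p = 0.524). Controls agree closely for this gene, within 1.06 times.

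Dnajc25 and Dnajc17 marked the ends of the class. Dnajc25 was at 4.97 ± 0.79 RPKM (SD, n = 3) among controls, against 7.62 ± 0.993 RPKM (SD, n = 2) with Myc deleted, without overlap, a log2 fold change of 0.53 (SE 0.25; limma adjusted p = 0.431). Dnajc17, a nuclear J protein, was at 9.62, 6.76 and 11.4 RPKM for the controls, against 2.73 and 10.5 RPKM for MycKO 5 and 6. Its -0.62 rested on 15 reads in MycKO 5 and turned to 0.19 without that library. Apart from Dnajc25, Dnajc17, Dnajc13 and Dnajc5, the tested class C genes outside mitochondria lay between -0.09 (Dnajc24) and 0.41 (Dnajc12).

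Dnajc6, which encodes auxilin, a J protein that strips clathrin from vesicles (Entrez 72685; chromosome 4, 101496648 to 101642799, plus strand), had 0 reads in the 3 controls and 32 and 21 reads in MycKO 5 and 6. These are 1.05 and 0.281 RPKM, so it reached 1 RPKM in 1 library only and was not tested. MycKO 5, the higher of the pair, also had the highest sums of myeloid, of red cell and platelet, and of basophil and mast cell markers. MycKO 6 had the highest sums of T cell and B cell markers. The part of these cells in the Dnajc6 reads was not tested. Over each group Dnajc6 was 44.1-fold higher in MycKO when the 3 controls are set at 3 reads in all. That ratio was 91.9-fold from MycKO 5 alone and 24.6-fold from MycKO 6 alone. Counting error in the MycKO reads is left out, so these are not lower bounds. The authors' deposited table gave an adjusted p of 0.0177, and limma with no filter 0.305. Hspa12b, a distant HSP70 relative known from blood vessels, had the opposite pattern, with 12, 89 and 34 reads for controls 1, 2 and 3, against 0 and 1 reads in MycKO 5 and 6. Its adjusted p was 0.159 in the authors' deposited table and 0.346 in limma with no filter.

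Small heat shock proteins, which hold unfolded chains without ATP, were scarce in these cells. Hspb1 (HSP27) had 6 reads in control 1, 19 in MycKO 6 and 0 in the other 3 libraries. Hspb6 was at 2.27 ± 1.57 RPKM (SD, n = 3) among controls, against 3.39 ± 0.488 RPKM (SD, n = 2) with Myc deleted. Hspb11, a cilium transport protein that carries the family name, was at 1.66, 11.2 and 12.4 RPKM for controls 1, 2 and 3, against 4.26 and 5.50 RPKM for MycKO 5 and 6, with control 1 below both MycKO libraries; its log2 fold change of -0.37 became -1.13 without control 1. The remaining untested genes were Hspa1l, Hspa12a and Dnajc28, each with no more than 77 reads in a library and at least 1 library without reads. Dnajc28 had 27, 0 and 28 reads for controls 1, 2 and 3, against 18 and 77 for MycKO 5 and 6, with both MycKO libraries higher in RPKM.

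By level, the 69 genes fell into 8 with a mean of at least 100 RPKM over the 5 libraries, 37 from 10 to 100, 16 from 1 to 10 and 8 under 1. Hspa8, Hsp90ab1 and Pfdn5 came first, and their control ranges did not overlap. Below them Dnajc15 (146.0 ± 54.2 RPKM in controls), Cct2 (127.3 ± 13.5), Hsp90aa1 (124.0 ± 6.99), Cct5 (111.4 ± 6.55) and Cct4 (107.3 ± 16.2; SD, n = 3 for each) did not differ from their neighbours beyond the spread. In all, the 69 genes took 0.695% to 0.752% of the reads in controls and 0.762% and 0.724% in MycKO 5 and 6. The median SD of the controls on the log2 scale was 0.21 for the tested chaperone genes and 0.23 for all genes tested.

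Among the partners of these chaperones no gene passed the test either. The 45 listed genes outside the 69 included co-chaperones, exchange factors, tubulin cofactors, mitochondrial proteases, heat shock factors and the prefoldin subunit gene Vbp1. All 45 were tested and none passed limma, where 1.34% of all genes tested passed. An unadjusted p under 0.05 was found for 5 of them (13.2% of all genes had one). With a median log2 fold change of 0.005, 24 of the 45 were above 0 (53.3%, against 57.1% of all genes tested) and 21 below. The smallest p belonged to Hspbp1, which releases nucleotide from HSP70, at 9.82, 9.50 and 12.3 RPKM for controls 1, 2 and 3, against 14.8 and 21.9 RPKM for MycKO 5 and 6 (log2 fold change 0.73, SE 0.23, limma adjusted p = 0.218). Next was Stub1, the ubiquitin ligase CHIP that acts on HSP70 clients, at 16.4, 15.3 and 19.9 and at 10.1 and 12.0 RPKM (-0.60, SE 0.19, limma adjusted p = 0.23). Both genes kept their MycKO values on 1 side of every control, and neither was called by limma-voom or in the authors' deposited table.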

How the data were processed

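Stranded libraries of sorted NK cells were sequenced as single reads, per the labels' protocols. TopHat, edgeR and mm10 are named, without a role, per the submitters' processing notes; their versions, the gene models and whether counting used strand are not stated there. The deposited table gives RPKM per sample, and, per the file headers, the authors' mean normalized signal, their fold ratio, its log2 value, and their p-value and adjusted p-value, from a test the header does not name.

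RPKM was analysed as log2(RPKM + 1), so changes of low genes are understated. The 11190 genes that reached 1 RPKM in 2 or more samples entered limma 3.58.1 in R 4.3.3 over all 5 samples with a variance trend; tests were two-sided, with Benjamini-Hochberg adjustment over all genes tested and a threshold of 0.05. Reads were recovered from RPKM and the authors' group means; 100% of them were whole numbers, to within 0.001 read. Ratios against 0 reads allow for counting error in the controls only, and not for variation between libraries. No pair of libraries agreed within counting noise (chi-square per degree of freedom at least 17.8). The fit was also tested on simulated reads that gave every gene the same dispersion. That setting does not show how the fit behaves with the spread of these libraries.

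Genes were named by a rule: all chaperonin, prefoldin, HSP90 and main HSP70, J and mitochondrial genes, those called by any test, the 6 largest differences each way, and those at the edges of a range; others were chosen after their values were seen. The members and lists were chosen with earlier results of these data known. Alternatives were 2 other scalings (median-of-ratios, upper-quartile), 0.1 as pseudocount, a filter at 5 RPKM or none, leaving out each sample, limma-voom and the authors' deposited values. Coordinates are from GENCODE vM21 (mm10) and sequences from RefSeq (GRCm38.p6). Python 3.11.15 and matplotlib 3.10.9 made the figures.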

Additional observations from a re-analysis of the deposited data

How the results depend on the processing

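No paired analysis was possible because the groups share no replicate numbers. No chaperone gene passed at an adjusted p under 0.05 in any alternative except the authors' deposited table, where 1, Dnajc6, did. Genes with an unadjusted p under 0.05 numbered 5 (8.06%, against 13.2% of all genes), 8 with no filter (11.6% against 13.1%), 2 in limma-voom (3.23% against 12.5%) and 8 in the authors' deposited table (11.6% against 11.1%). With 1 library left out they numbered 3 to 6, with 3 without control 1 (4.84% against 10.8%), control 3 (4.92% against 11%) or MycKO 5 (4.92% against 7.75%), and 6 without MycKO 6 (9.68% against 9.62%). Genes whose groups did not overlap numbered 14, and 20 to 33 with 1 library left out (24 without control 2, 33 without MycKO 5 and 32 without MycKO 6), where fewer values are compared and the share of all genes also went up, to between 40.1% and 55%. The median stayed between 0.0099 and 0.095. With 1 MycKO library left out, the other is assumed to vary like the controls.

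Of 53 tested genes given with values, Hspbp1 and Stub1 included, 27 kept their sign in all alternatives and 26 did not, in 49 of 630 comparisons; the cause was not tested, and their lowest adjusted p in any alternative was 0.0997, for Hsp90aa1 in limma-voom. Over the libraries left out, ranges that crossed 0 were -0.0069 to 0.30 for Cct6a, -0.055 to 0.27 for Dnaja1, -0.047 to 0.12 for Dnaja2, -0.19 to 0.68 for Dnaja3, -0.033 to 0.18 for Dnajb1, -0.36 to 0.12 for Dnajb6, -0.081 to 0.0049 for Dnajc1, -0.43 to 0.24 for Dnajc11, -0.55 to 0.30 for Dnajc15, -1.43 to 0.19 for Dnajc17, -0.25 to 0.039 for Dnajc24, -0.33 to 0.21 for Dnajc4, -0.19 to 0.16 for Dnajc7, -0.033 to 0.18 for Dnajc8, -0.042 to 0.22 for Hsp90ab1, -0.019 to 0.14 for Hspa4, -0.18 to 0.22 for Hspa4l, -0.15 to 0.10 for Hspa8, -1.13 to 0.038 for Hspb11, -0.035 to 0.51 for Hspd1, -0.11 to 0.24 for Hsph1, -0.11 to 0.47 for Pfdn2, -0.65 to 0.54 for Pfdn4, -0.12 to 0.0041 for Pfdn5, -0.074 to 0.43 for Pfdn6 and -0.22 to 0.17 for Tcp1. Dnaja2 turned to -0.023 and -0.021 under median-of-ratios and upper-quartile scaling, and in limma-voom Pfdn4 turned to 0.30, Dnajc15 to 0.056, Dnajc11 to 0.050 and Dnajc4 to 0.079. In the authors' deposited table Dnaja2 was at -0.039, Hspa4 at -0.015, Hspa4l at -0.024 and Hsph1 at -0.044. With 1 library left out, the difference was -1.49 to 1.51 percentage points for the share of Hspa8, 3.07 to 5.92 for that of Hsp90aa1, and -68.9 to 2.70, -0.16 to 26.2 and 11.7 to 56.3 RPKM for the chaperonin, prefoldin and mitochondrial sums. MycKO 5, with 5451728 reads, limits the precision of genes at low level.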
